A study of Homo sapiens with 6 samples.

Results

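The 10 genes described here make, sense and clear extracellular adenosine: the ectonucleotidases NT5E, ENTPD1 and ENTPD3, the receptors ADORA1, ADORA2A and ADORA2B, the adenosine-consuming enzymes ADA and ADK, and the nucleoside transporters SLC29A1 and SLC29A2. They were taken by symbol from a table of 60748 genes, and all 10 were found. The set was put together because NT5E was higher after FAPα overexpression, so the comparison of the groups had already been used when the genes were chosen. Their differences between groups are therefore given as a description. The fit was run over all genes, and which of the 10 it called is stated, but no p-value is given for them and the calls support nothing.

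The RNA of 6 libraries was sequenced, all from LX-2 cells, a line established from human hepatic stellate cells. In 3 libraries the cells carried the negative control vector (LX-2Vector), and in 3 they stably overexpressed fibroblast activation protein α (LX-2FAP), a serine protease of the cell surface. Both lines were made by lentiviral infection, with a vector that carried a ubiquitin promoter, EGFP and a puromycin resistance gene, and both were cultured for 24 h. The methods speak of stable clones selected with puromycin, and do not make clear whether each LX-2 line was 1 clone or a pool. The sources used here do not state whether the 3 libraries of a group came from separate cultures, so p-values measure only the spread between these libraries, which may be technical.

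Cells release ATP when they are stressed or injured. At the cell surface ENTPD1 (CD39) and ENTPD3 strip ATP and ADP to AMP, and NT5E (CD73) turns AMP into adenosine. Adenosine signals through G protein-coupled receptors. Equilibrative transporters carry it into the cell, where ADK returns it to AMP and ADA deaminates it to inosine. In the liver, adenosine receptors on hepatic stellate cells are known for a part in fibrosis.

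Total counts ran from 17355700 to 26352060 per library. FAP itself, the overexpressed gene, went from 2.28 ± 0.379 in LX-2Vector to 723.2 ± 112.3 in LX-2FAP (mean ± SD, n = 3), in CPM (counts scaled to library size, with TMM). Of 10 stellate cell markers, 8 had at least 10 counts in every library. DES was under 10 counts in every library and LRAT had no count. Of the 8, COL1A2 and ACTA2 were low, with 13 to 33 and 49 to 91 counts per library. The summed FPKM (fragments scaled to gene length and to library size) of the stellate list, most of it from VIM and TIMP1, was 521 to 542 in LX-2Vector and 531 to 549 in LX-2FAP. Within the list edgeR called COL1A1, COL3A1 and PDGFRB lower (log2 fold changes -0.40, -0.69 and -0.38) and VIM higher (0.13), and it called the endothelial marker VWF lower (-1.06). Over all tested genes 5.29% were called. The summed FPKM of 5 leukocyte markers was 4.56 to 6.01 and 5.30 to 7.05, that of 6 hepatocyte markers 2.67 to 3.07 and 2.16 to 2.40, that of 6 endothelial markers 1.2 to 1.49 and 0.908 to 1.29, and that of 4 epithelial markers 1.24 to 2.09 and 1.05 to 1.54. TTR had no count, and ALB, APOA1, APOB, CYP3A4, EPCAM, CDH1, CD68 and LYVE1 had under 10 counts in every library. CDH5 had 3 to 10 counts per library, STAB2 4 to 17, CD3E 2 to 10 and KRT19 9 to 21. The remaining genes of these lists had at least 10 counts in every library. SERPINA1 had 199 to 338 counts per library, PTPRC 97 to 130, LYZ 88 to 142 and CD14 53 to 86. KRT7 had 57 to 126, PECAM1 75 to 104, TEK 23 to 47 and VWF 12 to 74. The part of these low signals in the results was not tested.

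Promoter sequence is shown for the genes whose start region held the letters TGACG, the short form of the element that the cAMP-responsive factor CREB binds, since several adenosine receptors act on cAMP. The windows are the 250 bases before each RefSeq start (GRCh38.p14), searched on both strands. RefSeq windows were at hand for 8 of the 10 genes, with 14 starts in all. No window of these genes held the full palindrome TGACGTCA, which contains TGACG on both strands and was present in 1.65% of 35116 windows of the same length. TGACG was present in 21.2% of all windows. Capitals mark TGACG:
NT5E, chr6:85449944-85449973, plus strand, motif 127 bases before the start: ggtcggatcgggTGACGtcgcgaacttgcg
ADK, chr10:74176527-74176556, plus strand, motif 224 bases before the start: taaactgcggggTGACGggacgctgttact
ADORA2B, chr17:15944892-15944921, plus strand, motif 226 bases before the start: cgagctcgagcgTGACGggaagttggggca
ENTPD1, chr10:95693977-95694006, plus strand, motif 196 bases before the start: tcgcatagcgtcTGACGccatccgcgtgcc

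NT5E had 1 such motif. In GENCODE release 29 the NT5E gene begins upstream of this window, so the window lies inside that longer gene model. ADK had 1 motif at the start at 74176763 and none at its other start at 74151221, and ADORA2B had 1. ENTPD1 had 3 at its start at 95694185, of which 1 is shown, 1 at the start at 95755652 and none at its other starts. The windows of ADA, ADORA1, ENTPD3 and SLC29A1 had none. The letters GCGTG, which form the core bound by hypoxia-inducible factors together with ACGTG, were present in 32.2% of all windows and ACGTG in 18.5%. NT5E had neither. GCGTG occurred once in the ADA window, 2 times at the ADK start at 74176763 and 2 times at the ENTPD1 start at 95694185. ADORA2B had 1 GCGTG that overlapped its TGACG, and SLC29A1 had an ACGTG on each strand of the same 6 letters, shown in capitals for the plus strand in the next line:
SLC29A1, chr6:44219365-44219394, plus strand, motif 244 bases before the start: cagtgcACGTGctcccaggtctcagggagg

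A match of letters is a description of the window. No binding was measured.

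The levels of the 10 transcripts spanned more than 3 orders of magnitude, and NT5E stood far above the rest. On the FPKM scale, which divides by gene length and so allows levels of different genes to be compared, NT5E had 155.5 ± 4.33 in LX-2Vector and 181.2 ± 4.81 in LX-2FAP (SD, n = 3). It was the gene at rank 116 of 38380 genes with an FPKM above 0 in LX-2Vector and at rank 94 of 37547 in LX-2FAP. ADK followed at 22.4 ± 0.411 and 25.9 ± 0.931 FPKM, a level 6.95 times and 7.01 times below NT5E. With its exon length in GENCODE release 29 ADK would stand at 32.7 ± 0.602 and 37.8 ± 1.36 FPKM, a smaller step below NT5E. SLC29A1 had 14.5 ± 0.911 and 13.03 ± 0.518 FPKM, and ADORA2B 10.2 ± 0.699 and 11.1 ± 0.361 FPKM.

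The lower part of the order held ADA at 3.17 ± 0.137 FPKM in LX-2Vector and 2.85 ± 0.0706 in LX-2FAP, SLC29A2 at 1.11 ± 0.104 and 1.03 ± 0.0732, and ENTPD1 at 0.887 ± 0.0753 and 0.802 ± 0.0154. ADORA1, ADORA2A and ENTPD3 were below 0.5 FPKM. The order was the same in both groups, and no gene overlapped its neighbour over the 3 libraries of a group. The step between SLC29A2 and ENTPD1 was the narrowest in LX-2Vector, at 1.25 times, and that between SLC29A1 and ADORA2B in LX-2FAP, at 1.17 times. The place of ENTPD1 rested on the gene length behind the deposited FPKM, which was 14344 bases, against 6975 bases of merged exons in GENCODE release 29. With the latter length ENTPD1 would stand at 1.82 ± 0.155 FPKM in LX-2Vector and 1.65 ± 0.0316 in LX-2FAP, above SLC29A2.

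**Figure D1:**
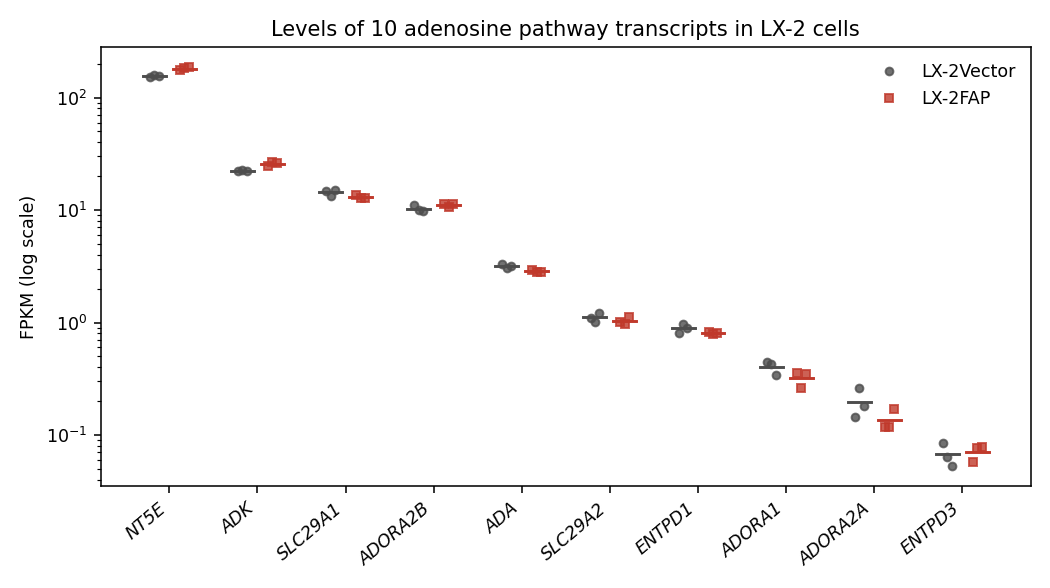
FPKM of the 10 genes (log axis) in each LX-2Vector library (circles) and LX-2FAP library (squares), with a bar at each group mean (n = 3). NT5E lies alone at the top at 155.5 and 181.2 FPKM, and ENTPD3 at the bottom at 0.0673 and 0.0710 FPKM.

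Of the 10 genes, 9 passed the filter on low counts and ENTPD3 did not. NT5E and ADK were among the genes called higher in LX-2FAP (edgeR quasi-likelihood test, adjusted p under 0.05), and none was called lower, with 1 of the set lower at an unadjusted p under 0.05. For NT5E the call restates how the set was chosen. Of all 18275 genes tested, 5.29% were called, 2.57% higher and 2.73% lower. Since the set was chosen on this contrast, nothing is read from its count against that background. The median log2 fold change over the 9 genes was -0.11, with 3 above 0 and 6 below, and it was -0.01 over all tested genes. DESeq2's Wald test called the same 2 genes, and limma-trend on FPKM called 0 of them, with 3 at an unadjusted p under 0.05 in limma and in edgeR. Without LX-2FAP replicate 2 edgeR called 1 of the set, and without LX-2FAP replicate 3 it called 0. CPM values of the groups did not overlap for NT5E, ADK and ADA, where 26.4% of all tested genes did not overlap.

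**Figure D2:**
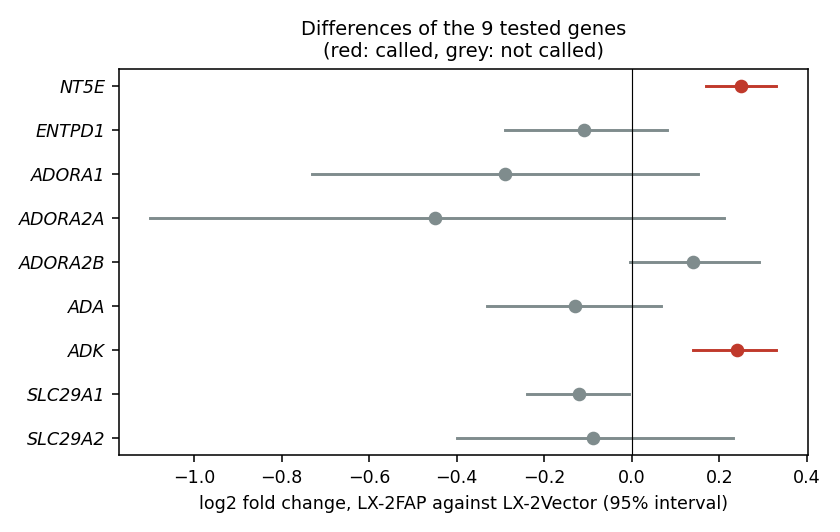
Log2 fold change of LX-2FAP against LX-2Vector for the 9 genes tested (points) with 95% intervals (lines), red for genes called by edgeR. NT5E lies at 0.25 and ADK at 0.24, and the widest intervals belong to ADORA2A and ADORA1, which had the fewest counts of the 9. The set was chosen on this contrast, so points, intervals and calls are a description and support no difference.

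NT5E (ENSG00000135318, GRCh38 chromosome 6, 85449584 to 85495791), the ectoenzyme that makes adenosine from AMP, had 685.96, 718.16 and 693.62 CPM in LX-2Vector and 806.32, 834.89 and 853.52 CPM in LX-2FAP. All 3 LX-2FAP libraries lay above all 3 LX-2Vector libraries. In counts these were 18123, 12603 and 14753 against 19327, 15017 and 17880. The log2 fold change was 0.25 (SE 0.04, 95% interval 0.17 to 0.33), or 1.19-fold. In bulk RNA, a change in the number of cells that carry a transcript and a change in its amount per cell cannot be told apart. NT5E transcripts made up 0.0705% ± 0.00196 of all counts in LX-2Vector and 0.0822% ± 0.00218 in LX-2FAP (SD, n = 3). Over the 6 fits that left out 1 library the log2 fold change of NT5E ran from 0.23 to 0.28. No exon base of NT5E was shared with another annotated gene.

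ENTPD1 (ENSG00000138185, chromosome 10, 95711779 to 95869695), which supplies AMP to NT5E, had 11.58, 13.62 and 12.65 CPM in LX-2Vector and 11.85, 11.45 and 11.65 CPM in LX-2FAP. The groups overlapped, since the lowest LX-2Vector library lay within the LX-2FAP range. This gave a log2 fold change of -0.11 (SE 0.09, 95% interval -0.29 to 0.079). ENTPD1 shares 6.51% of its exon bases with the antisense gene ENTPD1-AS1, and whether counting used strand is not given in the sources used here, so reads of the pair may be mixed. ENTPD3 (ENSG00000168032, chromosome 3, 40387156 to 40428744), a second ATP- and ADP-hydrolysing ectoenzyme, had only 8, 4 and 4 counts in LX-2Vector and 5, 5 and 6 counts in LX-2FAP. At this depth no difference in ENTPD3 was detectable.

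The ratio of NT5E to ENTPD1, on the FPKM scale, was 187, 167 and 174 in the LX-2Vector libraries and 215, 231 and 232 in the LX-2FAP libraries. The means were 176 ± 10.5 and 226 ± 9.22 (SD, n = 3), and the groups did not overlap. With the GENCODE exon length of ENTPD1 the ratio was 85.6 ± 5.10 and 110 ± 4.48. The length enters every library alike, so the fold between the groups is the same by construction. ENPP1, another ectoenzyme that yields AMP from ATP, stood 5.37 ± 0.365 times above ENTPD1 in LX-2Vector and 5.03 ± 0.280 times in LX-2FAP on the deposited FPKM scale. The ratio of NT5E to ENPP1 was 32.8 ± 1.65 in LX-2Vector and 45.0 ± 3.32 in LX-2FAP, with no overlap. The deposited length of ENPP1 was 11423 bases, against 9959 in GENCODE release 29, and that of ENTPD1 14344 against 6975. With GENCODE lengths both ratios with ENPP1 would be smaller. NT5E was chosen because it was higher in LX-2FAP. The separation of its ratios to ENTPD1 and to ENPP1 carries that choice and is a description only.

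**Figure D3:**
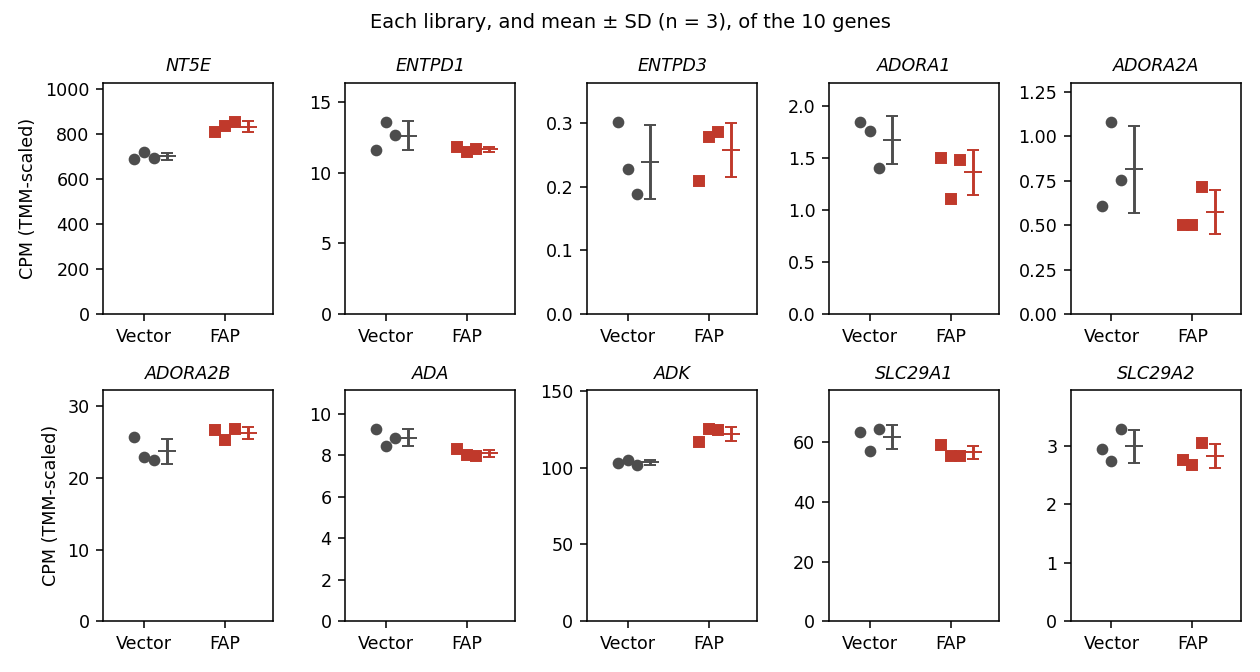
TMM-scaled CPM of each of the 10 genes in the 3 LX-2Vector libraries (circles) and the 3 LX-2FAP libraries (squares), with mean and SD to the right of the points; each panel has its own axis from 0. NT5E and ADK lie higher in every LX-2FAP library, ADA lies lower in every one, and the other genes overlap.

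Among the receptors, ADORA2B (ENSG00000170425, chromosome 17, 15944917 to 15975746), the low-affinity receptor that raises cAMP, had by far the most transcript. Its CPM was 25.74, 22.96 and 22.57 in LX-2Vector and 26.66, 25.35 and 26.88 in LX-2FAP. LX-2Vector replicate 1 lay within the LX-2FAP range and the other two LX-2Vector libraries lay below it. The log2 fold change was 0.14 (SE 0.07, 95% interval -0.0039 to 0.29), and it kept its sign in 14 of 14 alternative fits, from 0.11 to 0.21.

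ADORA1 (ENSG00000163485, chromosome 1, 203090654 to 203167405), which lowers cAMP through Gi, had 49, 31 and 30 counts in LX-2Vector and 36, 20 and 31 counts in LX-2FAP. In CPM these were 1.85, 1.77 and 1.41 against 1.502, 1.11 and 1.48, and the groups overlapped. Their log2 fold change was -0.29 (SE 0.21, 95% interval -0.73 to 0.15). ADORA1 shares 8.45% of its exon bases with AC105940.2.

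ADORA2A (ENSG00000128271, chromosome 22, 24417879 to 24442360), the high-affinity receptor that raises cAMP, had 16, 19 and 16 counts in LX-2Vector and 12, 9 and 15 counts in LX-2FAP. In CPM these were 0.61, 1.08 and 0.75 against 0.50, 0.50 and 0.72. LX-2FAP replicate 3 lay within the LX-2Vector range. LX-2FAP differed by a log2 fold change of -0.45 (SE 0.31, 95% interval -1.1 to 0.21). Its counts are uncertain, because 56.8% of its exon bases are shared with the readthrough gene SPECC1L-ADORA2A. The remaining receptor, ADORA3, had 0 to 2 counts per library.

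ADORA2B made up 94.7%, 93.3% and 94.9% of the summed FPKM of the 4 adenosine receptors in LX-2Vector and 95.8%, 96.6% and 95.6% in LX-2FAP. The means were 94.3% ± 0.863 and 96.0% ± 0.490, and the groups did not overlap. ADORA1 took 3.71% ± 0.358 and 2.77% ± 0.355, also without overlap, and ADORA2A 1.82% ± 0.608 and 1.16% ± 0.226, with overlap. In CPM, ADORA2B, ADORA1 and ADORA2A each overlapped between the groups, and none was called. The shares of ADORA1 and ADORA2A rest on the low counts given above. The sum of the receptors was 10.9 ± 0.719 FPKM in LX-2Vector and 11.6 ± 0.433 FPKM in LX-2FAP (SD, n = 3), and the groups overlapped.

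ADK (ENSG00000156110, chromosome 10, 74151185 to 74709303), the kinase that traps adenosine as AMP inside the cell, had 103.18, 105.19 and 101.79 CPM in LX-2Vector and 116.61, 125.15 and 124.16 CPM in LX-2FAP. Every LX-2FAP library lay above every LX-2Vector library. The log2 fold change was 0.24 (SE 0.04, 95% interval 0.14 to 0.33), or 1.18-fold. Over the 6 fits that left out 1 library it ran from 0.22 to 0.27. It shares 7.13% of its exon bases with AC022540.1 and 5.9% with the pseudogene MRPL35P3.

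ADA (ENSG00000196839, chromosome 20, 44619522 to 44652233), the deaminase that turns adenosine into inosine, had 9.27, 8.43 and 8.84 CPM in LX-2Vector and 8.30, 8.01 and 7.97 CPM in LX-2FAP. The groups did not overlap, but the gap between them was smaller than the SD of either group. For ADA the log2 fold change was -0.13 (SE 0.09, 95% interval -0.33 to 0.067), and it was not called.

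The ratio of ADK to ADA, on the FPKM scale, was 6.71, 7.52 and 6.94 in LX-2Vector and 8.47, 9.43 and 9.39 in LX-2FAP. The means were 7.06 ± 0.418 and 9.10 ± 0.543 (SD, n = 3), without overlap. With GENCODE exon lengths they were 10.5 ± 0.621 and 13.5 ± 0.806, because the deposited FPKM rested on 4658 bases for ADK where that release has 3184. ADK was higher and ADA lower in every LX-2FAP library, so the separation of their ratio follows from those values. It is no further observation, and ADA alone was not called. The ratio of NT5E to ADK was 6.95 ± 0.103 in LX-2Vector and 7.01 ± 0.134 in LX-2FAP, and the groups overlapped. It rests on the deposited length of ADK and would be smaller with the GENCODE one.

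SLC29A1 (ENSG00000112759, chromosome 6, 44219505 to 44234151), the main equilibrative nucleoside transporter, had 63.51, 57.10 and 64.50 CPM in LX-2Vector and 59.12, 55.49 and 55.42 CPM in LX-2FAP. LX-2FAP replicate 1 lay above LX-2Vector replicate 2, so the groups overlapped. The log2 fold change was -0.12 (SE 0.06, 95% interval -0.24 to -0.0062), and SLC29A1 was not called. SLC29A2 (ENSG00000174669, chromosome 11, 66362521 to 66372214), a second transporter of the family, had 2.95, 2.74 and 3.29 CPM in LX-2Vector and 2.75, 2.67 and 3.06 CPM in LX-2FAP. These values overlapped, with a log2 fold change of -0.09 (SE 0.15, 95% interval -0.40 to 0.23). The ratio of SLC29A1 to SLC29A2 was 13.1 ± 0.616 and 12.7 ± 1.11 on the FPKM scale, and the groups overlapped. SLC29A2 shares 10.3% of its exon bases with AP001107.9.

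**Figure D4:**
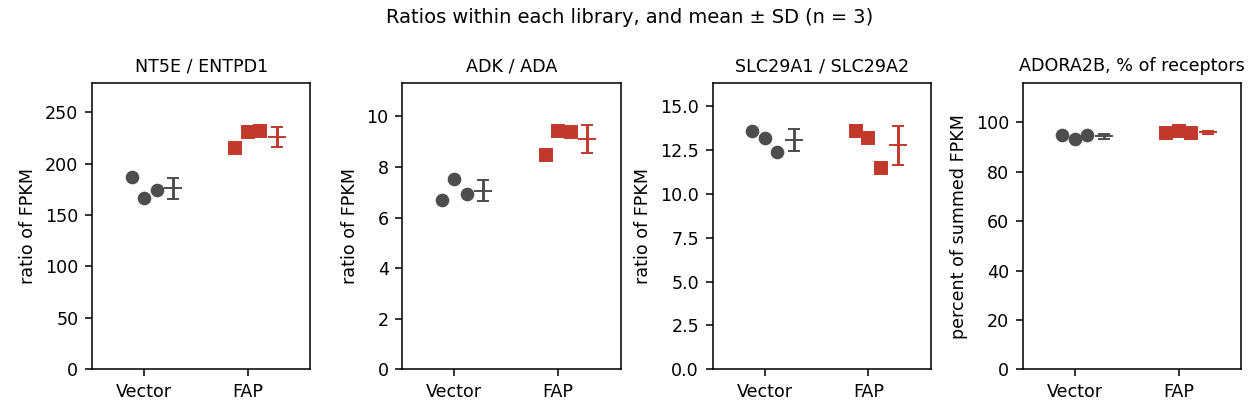
Ratios of FPKM within each library, and the share of ADORA2B in the FPKM of the 4 adenosine receptors, for LX-2Vector (circles) and LX-2FAP (squares), with mean and SD (n = 3); all axes start at 0. NT5E to ENTPD1 moves from 176 to 226 and ADK to ADA from 7.06 to 9.10 without overlap, while SLC29A1 to SLC29A2 overlaps. The set was chosen on this contrast, so the ratios are a description and support no difference.

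The genes whose profile over the 6 libraries was most like that of NT5E were found by the mean absolute difference of log2 CPM after each gene was centred on its own mean, among the 11555 genes whose mean count reached 100. The nearest were NDUFAB1, a mitochondrial acyl carrier protein, at 0.00806, SHOC2, a scaffold of RAS signalling, at 0.0148, PIP4P2 at 0.0158, the RNA helicase DDX21 at 0.0167 and GON7 at 0.0169. Their log2 fold changes were between 0.24 and 0.29. ADK was the gene at place 10 in that order, at 0.0188. The measure covers the contrast that chose NT5E and is a description only.

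The wider pathway, with lists of cAMP- and hypoxia-responsive transcripts added, was covered by 105 genes in 8 lists outside the 10, of which 78 were tested. By edgeR 1 of them rose and 8 fell, 69 were not called, and the median log2 fold change was -0.10, against -0.01 over all tested genes. Over all tested genes 2.57% were called higher and 2.73% lower. The lists, like the 10 genes, were chosen with earlier results of these data known, so their counts and median are a description. At an unadjusted p under 0.05 there were 27 of the 78, 7 higher and 20 lower, where the share of all tested genes was 22.2%, 10.5% higher and 11.6% lower. The hypoxia-responsive list alone held 5 of the 8 called lower and 7 of the 20 lower at an unadjusted p. Of the 78, DESeq2 called 2 higher and 3 lower, and limma-trend called 0 with 20 at an unadjusted p under 0.05. Single libraries decided these counts. With LX-2FAP replicate 2 or replicate 3 left out no gene was called in either direction, without LX-2Vector replicate 1 there were 0 higher and 5 lower, without LX-2Vector replicate 3 there were 0 higher and 1 lower, and without LX-2FAP replicate 1 there were 5 higher and 17 lower.

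**Figure D5:**
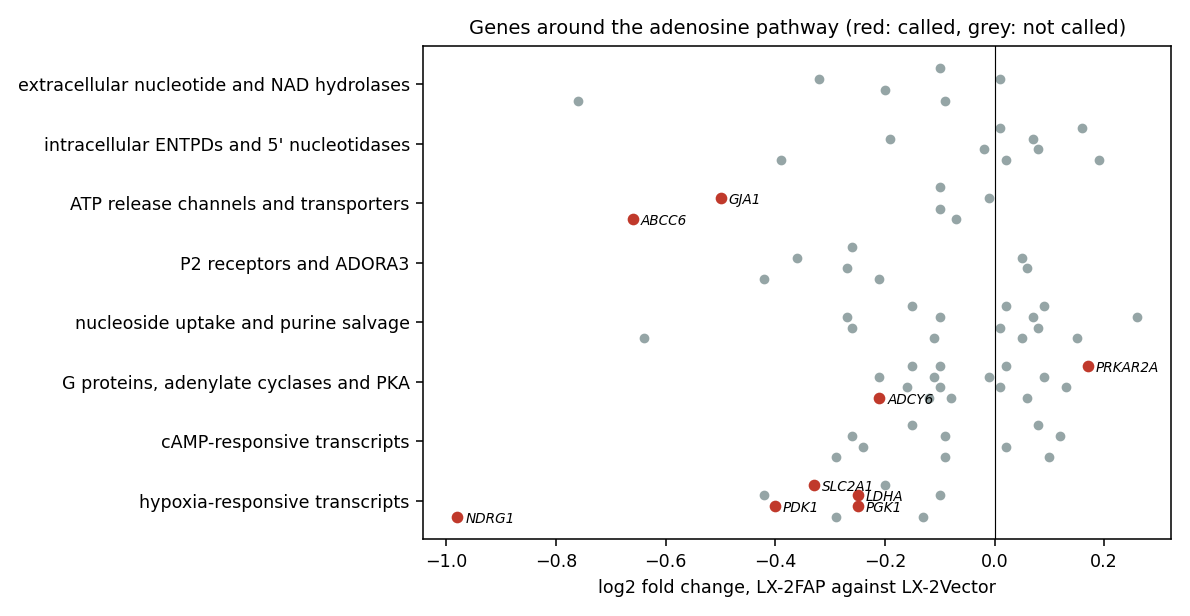
Log2 fold change of LX-2FAP against LX-2Vector for the 78 tested genes of 8 lists around the adenosine pathway, 1 point per gene and 1 row per list, red where edgeR called the gene. Of the 9 called genes, PRKAR2A alone lies to the right of 0, and 5 belong to the hypoxia-responsive list. The lists were chosen with earlier results of these data known.

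Upstream of NT5E, no other extracellular nucleotide or NAD hydrolase was called among 6 tested of 10 by edgeR, DESeq2 or limma-trend, with 2 at an unadjusted edgeR p under 0.05. The share of all tested genes at that p was 22.2%. ENPP1 had 4.75 ± 0.256 FPKM in LX-2Vector and 4.04 ± 0.274 in LX-2FAP (adjusted p = 0.0586 by edgeR, log2 fold change -0.20, SE 0.06), and its CPM did not overlap. ENPP1 was called with library size alone (edgeR adjusted p = 0.0366), with no filter (0.0194) and without LX-2FAP replicate 1 (0.0492), and its adjusted p reached 0.254 without LX-2FAP replicate 2. BST1, an NAD-consuming ectoenzyme, had a log2 fold change of 0.01 (SE 0.10). No intracellular ENTPD or 5' nucleotidase was called among 9 tested of 11 by those 3 tools, with 2 at an unadjusted edgeR p under 0.05. Of these, ENTPD4, an enzyme of the Golgi, and NT5C3B, a cytosolic nucleotidase, had the highest FPKM, with log2 fold changes of 0.02 (SE 0.05) and 0.08 (SE 0.05).

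Of 6 tested genes of ATP release, out of 8, 2 fell by edgeR, where 2.73% of all tested genes were called lower. GJA1, the gap junction protein connexin 43, fell from a level of 53.2 ± 9.13 to one of 37.3 ± 5.62 CPM (SD over 3 libraries), and this was a log2 fold change of -0.50 (SE 0.11), for which edgeR gave an adjusted p = 0.0176. ABCC6, a transporter on which cellular ATP release depends, fell from 3.48 ± 0.105 to 2.18 ± 0.443 CPM (adjusted p = 0.0316 by edgeR, log2 fold change -0.66, SE 0.17). GJA1 was not called without LX-2FAP replicate 2 or replicate 3, and its log2 fold change ran from -0.64 to -0.35 over the 6 fits that left out a library. ABCC6 was called only in 1 of these 6 fits, the one without LX-2FAP replicate 1, with a log2 fold change from -0.76 to -0.52 over them. ABCC6 has near-identical pseudogenes, so its counts are uncertain. Neither gene was called by limma-trend. DESeq2 did not call GJA1 and gave no adjusted p for ABCC6. The ATP channel PANX1 had a log2 fold change of -0.01 (SE 0.04) and the volume-regulated channel subunit LRRC8A one of -0.10 (SE 0.06).

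No ATP or UTP receptor was called among 7 tested of 16 in the list that also held ADORA3, by edgeR, DESeq2 or limma-trend, with 1 at an unadjusted edgeR p under 0.05. The share of all tested genes at that p was 22.2%. P2RX7, an ATP-gated channel, had a log2 fold change of -0.36 (SE 0.13), for which edgeR gave an adjusted p = 0.115 and P2RX4 one of -0.21 (SE 0.10). P2RX7 was called with no filter (edgeR adjusted p = 0.046) and without LX-2FAP replicate 1 (0.0138, log2 fold change -0.53), and its adjusted p reached 0.38 without LX-2FAP replicate 3. Among 14 tested of 18 genes of nucleoside uptake and purine salvage none was called by the 3 tools, with 3 at an unadjusted edgeR p under 0.05. HPRT1, which salvages hypoxanthine, had a log2 fold change of 0.05 (SE 0.05), and AHCY, which releases adenosine from S-adenosylhomocysteine, one of 0.02 (SE 0.05).

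Downstream of the receptors, 16 of 20 genes for G proteins, adenylate cyclases and protein kinase A were tested. Over all tested genes edgeR called 5.29%, and of these 16 genes 1 rose and 1 fell. DESeq2 called both of these and also GNAQ, the Gq subunit (log2 fold change 0.14, SE 0.05, DESeq2 adjusted p = 0.0399), for which the edgeR adjusted p was 0.0645. PRKAR2A, a regulatory subunit of protein kinase A, rose from 150.2 ± 2.36 to 168.6 ± 4.42 CPM (adjusted p = 0.0292 by edgeR, log2 fold change 0.17, SE 0.04). ADCY6, an adenylate cyclase, fell from 65.2 ± 4.30 to 56.4 ± 3.01 CPM (adjusted p = 0.0474 by edgeR, log2 fold change -0.21, SE 0.06). Each lost its call in 4 of the 6 fits that left out a library (without LX-2Vector replicate 1 or 3 or LX-2FAP replicate 2 or 3), with log2 fold changes from 0.16 to 0.19 for PRKAR2A and from -0.26 to -0.17 for ADCY6. PRKAR2A was not called with library size alone, ADCY6 shares 8.48% of its exon bases with AC117498.1 on the other strand and PRKAR2A 4.14% with PRKAR2A-AS1. PRKAR1A, another regulatory subunit, and the inhibitory G protein GNAI2 had the highest FPKM of this list, with log2 fold changes of 0.06 (SE 0.04) and -0.11 (SE 0.04).

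Of 10 cAMP-responsive transcripts, all tested, none was called by edgeR, DESeq2 or limma-trend, with 3 at an unadjusted edgeR p under 0.05, all lower. The share of all tested genes at that p was 22.2%, with 11.6% lower. FOSL2 had a log2 fold change of -0.15 (SE 0.05), for which edgeR gave an adjusted p = 0.067 and GEM one of 0.08 (SE 0.06). FOSL2 was called by edgeR with library size alone (adjusted p = 0.0354), with no filter (0.0213), when LX-2Vector replicate 2 was left out (0.0476) and when LX-2FAP replicate 1 was (0.0377), and its adjusted p reached 0.311 without LX-2FAP replicate 3. NT5E is itself known as a target of hypoxia-inducible factors, and whether this bears on its difference here was not tested. The hypoxia list, like the others, was chosen with earlier results of these data known. Of 12 hypoxia-responsive transcripts 10 were tested, and 5 fell, 0 rose and all 10 had a log2 fold change below 0, with a median of -0.27. Over all tested genes 2.73% were called lower, 53% had a log2 fold change below 0 and the median was -0.01. The 5 that fell were NDRG1 (-0.98, SE 0.23), PDK1 (-0.40, SE 0.10), SLC2A1 (-0.33, SE 0.07), LDHA (-0.25, SE 0.07) and PGK1 (-0.25, SE 0.06), with edgeR adjusted p-values of 0.0249, 0.032, 0.017, 0.0421 and 0.026. DESeq2 called PGK1 and SLC2A1 of this list, and limma-trend called 0 of it with 7 at an unadjusted p under 0.05. None of the 5 was called by edgeR once LX-2Vector replicate 3 was left out, nor once LX-2FAP replicate 2 or replicate 3 was. In the first of these fits the log2 fold changes were -0.59 for NDRG1, -0.26 for PDK1, -0.26 for SLC2A1, -0.19 for LDHA and -0.17 for PGK1. Those without LX-2FAP replicate 2 were -0.82, -0.29, -0.28, -0.18 and -0.20 in the same order, and those without LX-2FAP replicate 3 were -0.84, -0.41, -0.31, -0.23 and -0.23. LDHA and PGK1 have processed pseudogenes that could take some of their reads.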

How the data were processed

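RNA was sequenced in 3 LX-2Vector and 3 LX-2FAP libraries, grouped by their titles. Per the labels ribosomal RNA was depleted, while the methods list poly(A) selection as well. The authors aligned reads with HISAT2 2.0.5, counted them per gene with featureCounts 1.5.0-p3 and deposited whole-number counts, not normalized. The deposited FPKM values were computed by the authors from gene length and count. The submitters' processing notes name the build hg18, but 58337 of 60605 Ensembl identifiers are in GENCODE release 29 (GRCh38), which supplied the coordinates. The annotation release and use of strand are not given in the sources used here.

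Counts were tested with the edgeR 4.0.16 quasi-likelihood test after TMM scaling, with the default filter (minimum count 10, minimum total 15), no covariate, and Benjamini-Hochberg adjustment over 18275 genes. Calls were made where the adjusted p, 2-sided, fell under 0.05. Standard errors came from the test statistic. With 3 against 3 libraries an exact permutation test cannot go below 0.1. FPKM values were compared between genes without a test, and intervals cover the spread between libraries. Replicates of a group differed by more than counting noise, so each library was counted once.

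The 10 genes and all lists were chosen with earlier results of these data known. Named genes are FAP, the 10, called genes of the 8 wider lists with the 2 of highest FPKM in each, and the 5 genes nearest in profile to NT5E. Markers of 5 cell types were checked, and 1 planned leukocyte marker is not reported here. Identity between the encoded proteins was not analysed here. Alternatives were DESeq2 1.42.0 (size factors and Wald test), library size alone, 2 filters, limma-trend (limma 3.58.1) on log2(FPKM + 1) and log2(FPKM + 0.1), a replicate block, each library left out, and CPM per kilobase for levels.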

Additional observations from a re-analysis of the deposited data

How the results depend on the processing

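FAP was called in all 14 alternatives, with a log2 fold change from 6.27 (limma-trend on log2(FPKM + 1)) to 8.45, and from 8.17 to 8.45 when 1 library was left out. The 9 tested genes of the set kept their sign in every alternative that gave a value. NT5E ran from 0.22 to 0.28 and lost its call under both limma-trend fits and without LX-2FAP replicate 3, and ADK ran from 0.20 to 0.27 and also lost it without LX-2FAP replicate 2. Of the set, 0 genes were called by limma-trend with either pseudocount, and 0 to 2 when 1 library was left out. CPM per kilobase uses the same gene lengths as the deposited FPKM, so it cannot change the order within a library and does not test it. With the GENCODE length ENTPD1 moved above SLC29A2. In the wider lists the count called higher was 0 with library size alone and with either limma-trend fit, 2 with no filter and with the DESeq2 Wald test, and 0 to 5 when 1 library was left out. The count called lower was 16 with no filter, 0 with either limma-trend fit, 3 with the DESeq2 Wald test, and 0 to 17 when 1 library was left out. The causes were not tested. Over all genes 967 were called, 1606 with no filter, 2 with limma-trend and 26 to 1949 when 1 library was left out, and the split of 469 higher and 498 lower became 239 and 809 with library size alone. DESeq2 gave no adjusted p for ADORA1, ADORA2A, SLC29A2 and ABCC6.

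All values of the changed sign lay within 0.03 of 0. BST1 (-0.0291 to 0.0454 when 1 library was left out) was at -0.0195 with library size alone, -0.0208 and -0.0275 with limma-trend (pseudocounts 1 and 0.1), -0.0225 when LX-2Vector replicate 1 was left out, and -0.0291 when it was LX-2FAP replicate 1. ENTPD4 (-0.025 to 0.0469) was at -0.0116, -0.0115 and -0.012 in the first 3 of these settings and -0.025 without LX-2Vector replicate 1. AHCY (-0.0127 to 0.083) was at -0.00605, -0.00302 and -0.0031 in those settings, -0.00644 when LX-2Vector replicate 2 was left out, and -0.0127 when it was LX-2FAP replicate 1. PANX1 (-0.0291 to 0.0188) was at 0.00389 when LX-2Vector replicate 2 was left out, 0.0188 for LX-2Vector replicate 3, and 0.00425 for LX-2FAP replicate 3.

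The replicate numbers were not found to pair the libraries. Deviations of same-numbered libraries correlated at -0.0389, 0.0436 and -0.00962, and 0 of 6 libraries correlated best with its own number. With the replicate number as a block, 2 genes of the set were called, 1 of the wider lists was higher and 8 were lower, 975 of all genes were called, and all 38 named results kept their call. Depth limited ENTPD3, ADORA2A and ADORA1, with under 50 counts in every library.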
